A study of Rattus norvegicus with 10 samples.

Results

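Microglia are the resident immune cells of the brain, and perivascular macrophages are their relatives along its vessels. Genes that mark these cells were examined in the paraventricular nucleus of the rat hypothalamus after dehydration. Of 41 genes listed as microglial or macrophage genes, 39 had a probe set whose annotation gave that single symbol, out of 14217 genes so represented on the array. For each gene the probe set with the highest mean over the 10 arrays was taken, whatever the group. The 2 genes without such a probe set were P2ry13 and Spi1, which were not analysed here. Of the 39, 24 passed a filter on low signals (a mean over all 10 arrays of at least 24.1) and were tested, and 15 lay under it. None of the 24 passed the test for a difference between dehydrated and control pools in limma (0 at an adjusted p under 0.05, which 0.58% of all probe sets tested reached, and 4 at an unadjusted p under 0.05, which 12.7% reached).

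Male Sprague Dawley rats aged 10 to 12 weeks were either dehydrated for 3 days or kept as controls, with 5 arrays in each group. Tissue of 5 rats was pooled before RNA extraction for every array (50 rats in all, different animals in each pool), so that a signal averages several animals. The arrays were of the Affymetrix Rat Genome 230 2.0 type. Every sample is labelled as paraventricular nucleus, although the submitters' description of the design speaks of the supraoptic nucleus. The comparison asked which transcripts of the nucleus differ after water deprivation. No batch is labelled, so a batch of arrays and the group cannot be told apart. In its title, control replicate 5 carries a number apart from the run of the other controls, and what that number records is not stated.

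Microglia depend on the receptor Csf1r for survival, sense their surroundings through receptors such as Cx3cr1, P2ry12 and Trem2, and pass signals of many surface receptors through the adaptors Tyrobp and Fcer1g. They take up and digest material in lysosomes rich in cathepsins. The lineage factor PU.1, the product of Spi1, acts at many myeloid promoters, where it binds purine-rich sites. MHC class II genes, which present antigen to T cells, are low in resting microglia and higher in perivascular macrophages.

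Promoters are shown for the 3 tested genes with the smallest p that were found in the RefSeq promoter table (build GRCr8), each as the 250 bases before the gene's start. Capitals mark GAGGAA, the core of a PU.1 site, on either strand, so that TTCCTC is a match on the opposite strand. The Laptm5 window is chr5:148371630-148371879 (plus strand), that of Ctsz chr3:183653848-183654097 (minus strand) and that of Ctss chr2:185775146-185775395 (plus strand). The matches begin 63, 73 and 15 bases before the start of Laptm5, Ctsz and Ctss.
Laptm5: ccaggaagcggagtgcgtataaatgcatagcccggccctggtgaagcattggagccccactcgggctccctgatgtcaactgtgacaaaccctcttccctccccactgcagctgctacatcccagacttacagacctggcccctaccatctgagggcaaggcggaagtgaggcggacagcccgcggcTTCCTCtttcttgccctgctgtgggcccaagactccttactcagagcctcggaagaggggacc
Ctsz: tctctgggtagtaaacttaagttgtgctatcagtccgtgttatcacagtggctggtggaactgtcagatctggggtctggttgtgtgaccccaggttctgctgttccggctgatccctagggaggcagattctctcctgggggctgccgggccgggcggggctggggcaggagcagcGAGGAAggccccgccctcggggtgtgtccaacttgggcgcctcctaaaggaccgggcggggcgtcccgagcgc
Ctss: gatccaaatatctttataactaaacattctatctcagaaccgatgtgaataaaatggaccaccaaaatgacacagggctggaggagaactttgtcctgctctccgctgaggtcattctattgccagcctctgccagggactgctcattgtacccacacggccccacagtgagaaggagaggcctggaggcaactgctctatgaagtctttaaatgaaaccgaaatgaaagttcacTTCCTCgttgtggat

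The promoter table held 31 of the 41 genes. Aif1, Ccl2, Cd4, Fcer1g, Fcgr2b, Itgb2, Lcp1, P2ry12, Spi1 and Tyrobp were not matched. GAGGAA occurred in 19 of the 31 windows (61.3%), against 23.1% of 13243 promoters of genes with a single-symbol probe set and 23.3% of all 33469 promoters. The longer composite element at which PU.1 and an IRF factor bind side by side, and which can overlap GAGGAA, was found in 3 of the 31 (9.68%, against 2.48% of all), those of Cd68, Cd74 and Cybb. These are counts of letters, not of bound sites.

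Among the cytoskeletal genes, Aif1 had the smallest p of the 24. Aif1 encodes Iba1, the calcium-binding protein by which microglia are commonly stained. Its signal (probe set 1368558_s_at) was 113, 112, 114, 113 and 87.6 in the control arrays and 71.2, 94.9, 82.0, 75.2 and 75.4 in the dehydrated ones, in the order of replicates 1 to 5. Control replicates 1 to 4 lay close together above every dehydrated pool, whereas control replicate 5 lay below dehydrated replicate 2. The means were 108 ± 11.4 and 79.7 ± 9.32 (SD, n = 5 each), a log2 difference of -0.42 ± 0.11 (SE) with a 95% interval of -0.64 to -0.20, which did not pass in limma (adjusted p = 0.0880). It passed when control replicate 5 (adjusted p = 0.0250) or dehydrated replicate 2 (0.0486) was left out, and ranged up to 0.192 without others. A second, dimmer probe set of Aif1 had 30.2 ± 5.21 in control and 30.3 ± 14.1 in dehydrated pools, a log2 difference of -0.11 ± 0.27. With both probe sets averaged the difference was -0.27 (adjusted p = 0.466).

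**Figure D1:**
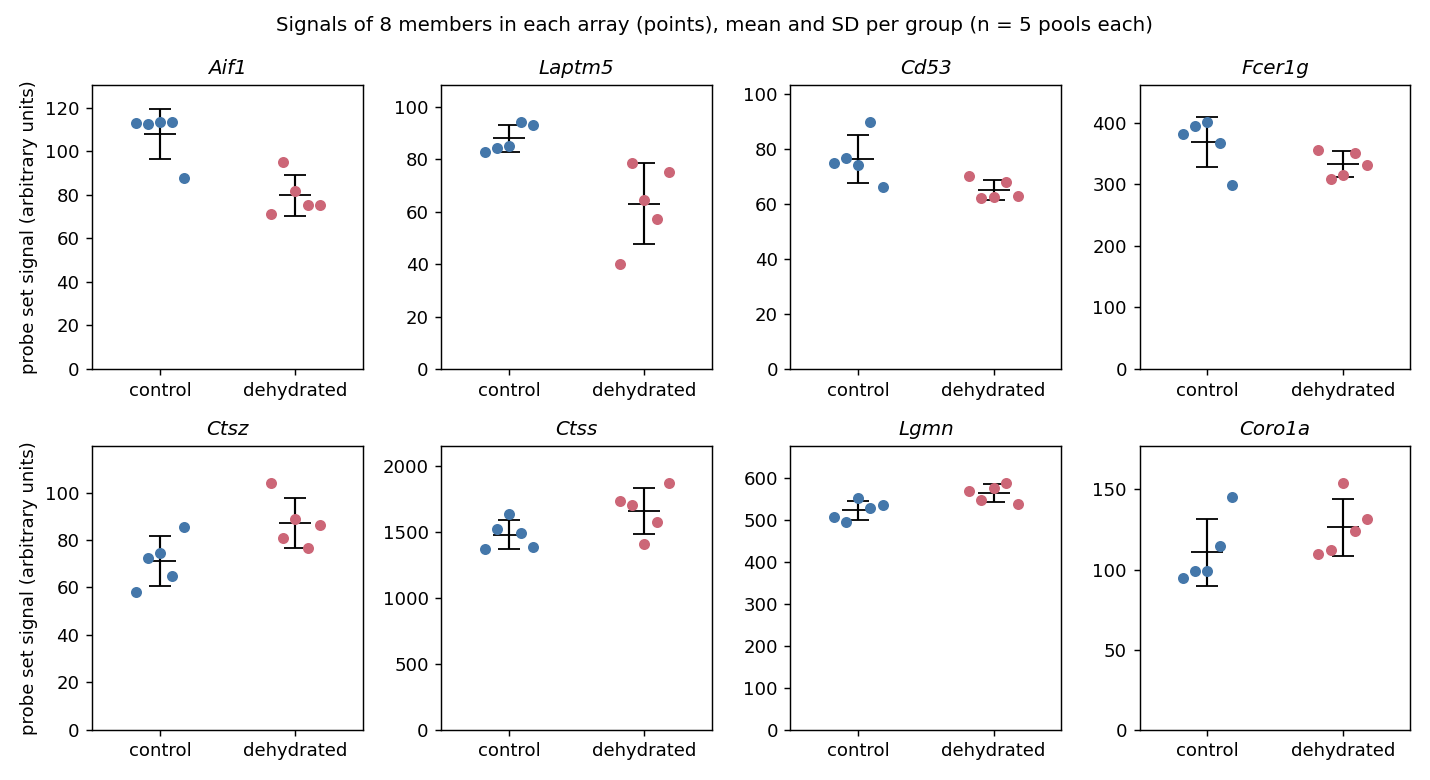
Probe set signals (arbitrary units, axis from 0) of 8 tested genes with the smallest p, 1 point per array, with the mean and SD of 5 control and 5 dehydrated pools. Laptm5 is the only 1 of the 8 whose groups do not overlap, at 82.9 to 94.3 in control and 40 to 78.7 in dehydrated pools.

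The other cytoskeletal genes lay on both sides of 0. Coro1a, an actin-binding protein of leukocytes, had signals of 95, 99.2, 98.9, 115 and 145 in control and 110, 112, 154, 124 and 132 in dehydrated arrays. Its dehydrated pools lay above 3 of the 5 controls, and control replicate 5 was the highest but 1 of all 10. The log2 difference was 0.19 ± 0.12 (adjusted p = 0.528). Lcp1, which bundles actin, differed by -0.05 ± 0.11.

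The lysosomal genes split by direction. Laptm5, a lysosomal membrane protein of haematopoietic cells (probe set 1383658_at), had 82.9, 84.5, 85.3, 94.3 and 93.1 in control and 40, 78.7, 64.4, 57.2 and 75.1 in dehydrated arrays. All 5 dehydrated values were lower than all 5 control values. This was the only 1 of the 24 tested genes with groups that did not overlap in either direction, and over all 18629 probe sets tested 3.36% did not overlap, 1.42% with dehydrated lower and 1.94% with dehydrated higher. The means were 88.0 ± 5.27 and 63.1 ± 15.5, a log2 difference of -0.49 ± 0.15 with an interval of -0.80 to -0.18 (adjusted p = 0.159). Its second probe set differed by -0.22 ± 0.14, from 52.9 ± 9.84 to 44.6 ± 6.67, and its groups overlapped. Dehydrated replicate 1 had the lowest value on both probe sets.

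The lysosomal proteases were on the other side. Ctsz, the carboxypeptidase cathepsin Z, had 57.9, 72.6, 74.6, 64.9 and 85.6 in control and 104, 80.7, 89.0, 76.5 and 86.3 in dehydrated arrays. Control replicate 5 was the only control inside the dehydrated range. The log2 difference was 0.29 ± 0.12 (adjusted p = 0.320). Ctss, cathepsin S, which trims the MHC class II invariant chain, had 1371, 1517, 1633, 1486 and 1382 in control and 1729, 1699, 1407, 1571 and 1870 in dehydrated arrays, with a log2 difference of 0.16 ± 0.07 (adjusted p = 0.373). Lgmn, the asparaginyl protease legumain, had 508, 495, 552, 529 and 536 in control and 570, 548, 577, 590 and 538 in dehydrated arrays, a log2 difference of 0.11 ± 0.06 (adjusted p = 0.442). The groups of all 3 proteases overlapped and none passed. Lyz2, lysozyme, differed by -0.07 ± 0.09. Cd68, a lysosomal glycoprotein used to stain phagocytic cells, lay under the filter, with 10.9, 12.7, 14.4, 18.3 and 19.6 in control and 19.9, 14.8, 11.9, 16.9 and 1.80 in dehydrated arrays.

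None of the tested receptors by which microglia are recognised passed. Csf1r had 209, 182, 236, 176 and 221 in control and 192, 179, 180, 210 and 201 in dehydrated arrays, and every dehydrated value lay inside the control range. The log2 difference was -0.08 ± 0.09, with an interval of -0.27 to 0.11. P2ry12, the ADP receptor that guides microglial processes, had 164, 172, 158, 157 and 156 in control and 158, 168, 141, 146 and 157 in dehydrated arrays (log2 -0.07 ± 0.08, interval -0.23 to 0.09). Its second probe set had a difference of 0.10 ± 0.14, the other sign. Trem2, a lipid-sensing receptor, had 28.9, 26.2, 32.0, 25.3 and 25.7 in control and 30.3, 26.8, 24.1, 20.4 and 27.6 in dehydrated arrays (log2 -0.09 ± 0.15, interval -0.41 to 0.23). Its second probe set lay under the filter. Gpr34, a lysophospholipid receptor, differed by -0.11 ± 0.15, with an interval of -0.43 to 0.21. All 4 tested receptors were thus on the negative side on their brightest probe set, each by less than its SE, with an adjusted p from 0.746 to 0.846. With the mean over all probe sets of each gene, P2ry12 and Trem2 turned to 0.0142 and 0.0945. Cx3cr1, the fractalkine receptor, lay under the filter with 24.9, 27.3, 18.1, 14.7 and 18.4 in control and 18.4, 13.9, 18.2, 21.2 and 16.8 in dehydrated arrays.

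The adaptors and Fc receptors were also on the negative side without passing. Fcer1g, the common gamma chain, had 382, 394, 401, 367 and 299 in control and 356, 308, 314, 351 and 331 in dehydrated arrays (log2 -0.14 ± 0.08, adjusted p = 0.474). Controls 1 to 4 exceeded all dehydrated pools, and control replicate 5 was the lowest of all 10. Tyrobp, the adaptor DAP12, had 53.0, 77.1, 61.0, 71.0 and 91.6 in control and 72.8, 62.9, 48.9, 60.5 and 62.1 in dehydrated arrays (log2 -0.18 ± 0.14). Fcgr3a, an activating IgG receptor, differed by -0.15 ± 0.15 with dehydrated replicate 1 at 65.6, above all others. Fcgr2b, the inhibitory IgG receptor, was under the filter, with a control median of 25.5 and a dehydrated median of 12.0. It was the only 1 of the 15 dim genes with an unadjusted p under 0.05 when no filter was used (adjusted p = 0.393), where 10.5% of all 31042 probe sets had such a p.

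Among the leukocyte surface proteins Cd53 had the smallest p. This tetraspanin of leukocytes had 75.0, 76.8, 74.0, 89.8 and 66.1 in control and 70.2, 62.1, 62.6, 67.8 and 63.0 in dehydrated arrays. Here too controls 1 to 4 exceeded every dehydrated pool while control replicate 5 fell among them. The log2 difference was -0.21 ± 0.10 (adjusted p = 0.402). The other 3 tested were Itgb2, the integrin beta chain of leukocytes (0.05 ± 0.12), the tetraspanin Cd37 (0.04 ± 0.17) and the adhesion ligand Cd48 (0.10 ± 0.14). Ptprc, which encodes the pan-leukocyte marker CD45, and Itgam, which encodes CD11b, lay under the filter. Ptprc had 20.2, 19.5, 24.4, 19.3 and 18.8 in control and 28.4, 20.8, 15.0, 16.6 and 17.0 in dehydrated arrays. Itgam had 11.5, 3.80, 3.00, 8.30 and 13.1 in control and 4.30, 6.10, 2.70, 12.1 and 3.60 in dehydrated arrays. Cd4, which rat macrophages carry as well as T cells, was as dim, with medians of 23.1 and 20.6. So were 3 of the usual defining genes of this lineage, Itgam, Ptprc and Cx3cr1, whose group means lay between 5.76 and 20.7.

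**Figure D2:**
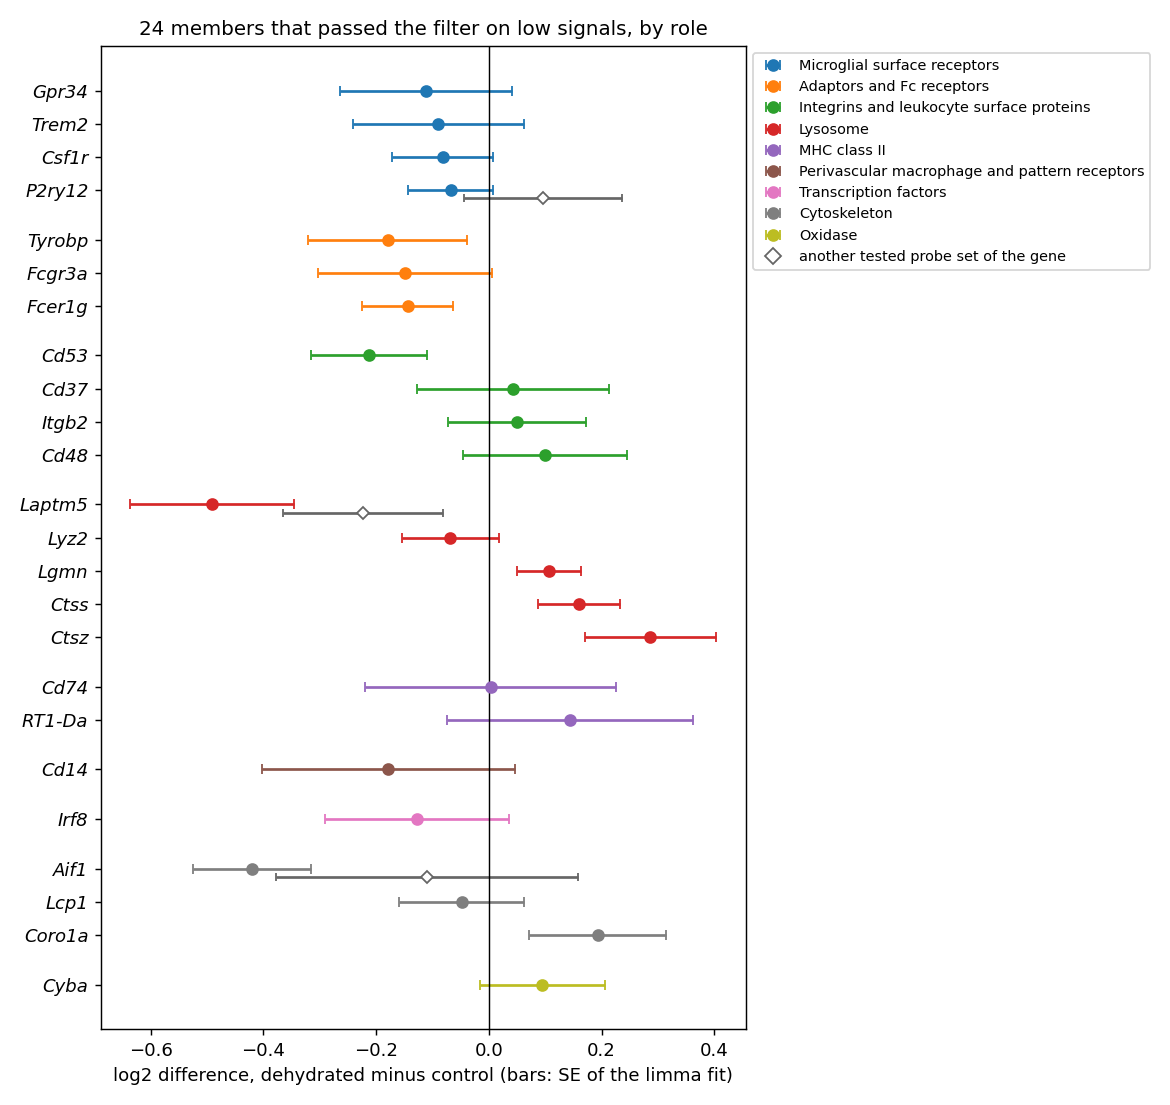
Log2 difference (dehydrated minus control, bars are SE of the limma fit, n = 5 pools each) of the 24 tested genes, grouped by role, with open diamonds for the 3 other tested probe sets of these genes. Of the 24, 14 lie below 0 and 10 above, Laptm5 lowest at -0.49 and Ctsz highest at 0.29.

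Among the MHC class II genes, Cd74 and RT1-Da were set apart by 1 pool. Cd74, the invariant chain, had 38.4, 41.4, 55.2, 32.6 and 45.5 in control and 36.9, 32.7, 33.9, 88.3 and 35.8 in dehydrated arrays. RT1-Da, an alpha chain, had 36.1, 34.8, 41, 28.3 and 28.7 in control and 37.5, 25.8, 28.0, 73.8 and 35.5 in dehydrated arrays. In both genes dehydrated replicate 4 lay far above the other dehydrated pools, which were 32.7 to 36.9 for Cd74 and 25.8 to 37.5 for RT1-Da. The log2 differences were 0.00 ± 0.22 and 0.14 ± 0.22, and without that pool -0.25 ± 0.15 (adjusted p = 0.581) and -0.08 ± 0.17 (adjusted p = 0.887). These 2 genes had the largest spread within groups of the 24, with coefficients of variation of 40.8% and 38.6% against a median of 12.9% over the 24. The median over all 18629 tested probe sets was 12.9% as well.

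The promoters of RT1-Da, at chr20:4515165-4515414 (plus strand), and RT1-Ba, at chr20:4576807-4577056 (plus strand), are shown because class II promoters share a Y box, an inverted CCAAT. Capitals mark ATTGG, which begins 49 and 43 bases before the starts. ATTGG was found on either strand in 54.8% of the 31 windows and in 34.0% of all promoters.
RT1-Da: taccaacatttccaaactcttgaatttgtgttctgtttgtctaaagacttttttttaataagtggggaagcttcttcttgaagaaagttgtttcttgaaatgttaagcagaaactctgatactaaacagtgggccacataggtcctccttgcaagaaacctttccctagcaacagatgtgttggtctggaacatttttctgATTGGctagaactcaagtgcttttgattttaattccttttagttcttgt
RT1-Ba: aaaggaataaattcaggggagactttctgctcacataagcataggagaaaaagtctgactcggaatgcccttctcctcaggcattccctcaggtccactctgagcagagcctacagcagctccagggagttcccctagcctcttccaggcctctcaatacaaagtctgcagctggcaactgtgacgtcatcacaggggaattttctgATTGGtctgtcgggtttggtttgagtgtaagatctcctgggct

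Other class II genes did not all follow that pool. RT1-Ba, under the filter, had 31.9 in dehydrated replicate 4, with 12.4 to 27.3 in the other dehydrated and 8 to 32.7 in the control arrays. Its 3 other probe sets, also under the filter, had 39.5, 16.5 and 4.6 in that pool, of which 39.5 was the highest of the 10 arrays. Of 7 further class II genes, 5 were matched and 3 tested, of which 0 passed in either direction and 0 had an unadjusted p under 0.05, with a median log2 difference of -0.05. RT1-DMa, a peptide exchange chain, had 87.4 in dehydrated replicate 4 and 74.2 to 76.1 in the other dehydrated pools, and its control values reached 106. RT1-DMb and the class II transactivator Ciita were highest in dehydrated replicate 1, at 117 and 46.4 among the dehydrated pools. The dim RT1-Bb and RT1-Db1 were highest in dehydrated replicate 4, at 20.6 and 22.3, with a control value of RT1-Db1 at 21.6. Summed signals of 8 matched T and NK cell genes were 160.7 in that pool, 106 of it from Lck, with 162.0 to 175.2 in the other dehydrated pools. Those of the 2 matched B cell genes were 23.4, with 10.3 to 34.0 in the others.

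**Figure D3:**
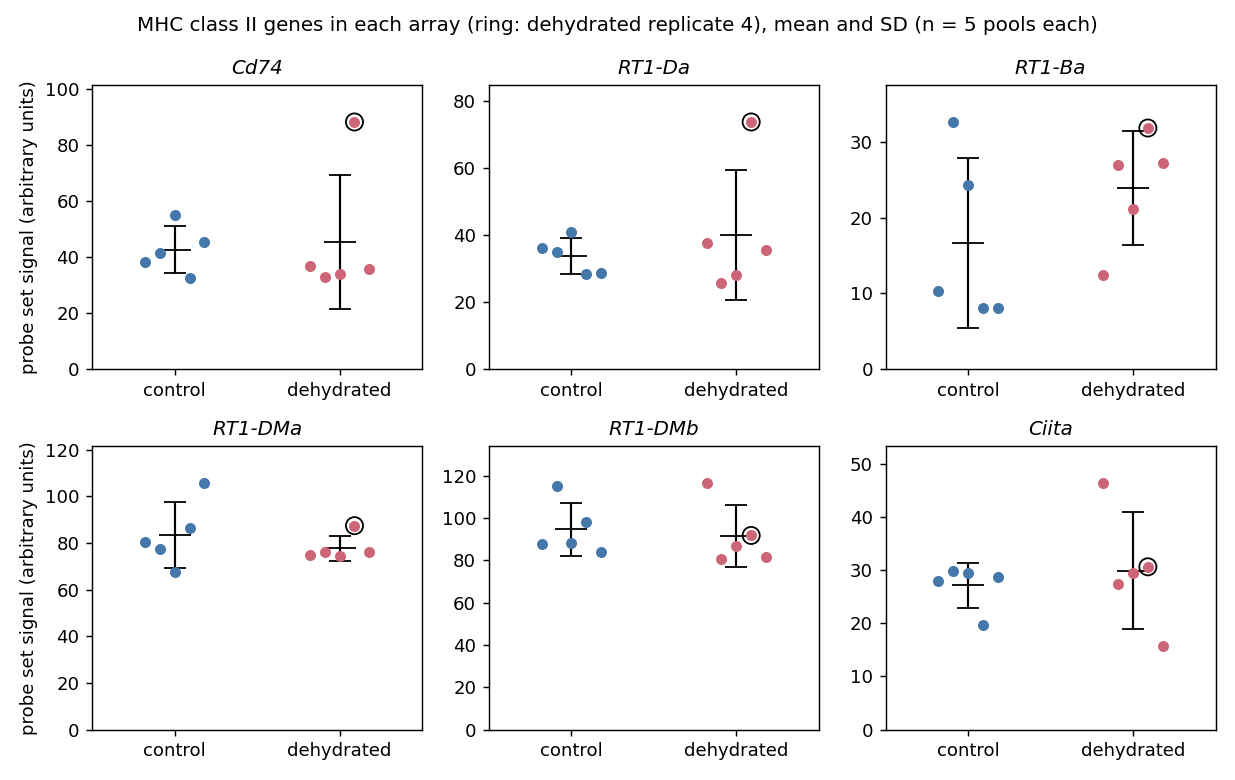
Probe set signals (arbitrary units, axis from 0) of 6 class II genes, 1 point per array with mean and SD of 5 pools, dehydrated replicate 4 ringed. The ringed pool stands apart from the other dehydrated pools for Cd74 (88.3), RT1-Da (73.8) and RT1-DMa (87.4, inside the control range), and not for RT1-Ba, RT1-DMb or Ciita.

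Genes of perivascular macrophages and of pathogen sensing were dim. Mrc1, the mannose receptor of perivascular macrophages, had 14.4, 19.3, 14.0, 21.1 and 26.3 in control and 26.8, 19.9, 18.1, 24.1 and 23.6 in dehydrated arrays. Cd163, the haemoglobin scavenger receptor of the same cells, had 2.40, 4.50, 11.6, 8.70 and 9.30 in control and 1.40, 4.6, 14.6, 10.3 and 14.9 in dehydrated arrays. Both ranges overlapped throughout. The lipopolysaccharide co-receptor Cd14 was the only tested 1 of these 5 genes and differed by -0.18 ± 0.22, with its lowest value, 14.3, in dehydrated replicate 4. The sensing receptors Tlr2 and Tlr4 had medians of 18 and 11.2 in control and 22.1 and 18.1 in dehydrated pools. The transcription factor Irf8, a partner of PU.1, had 25.8, 28.8, 39.9, 36.3 and 47.0 in control and 29.3, 28.9, 28.5, 34.7 and 37.2 in dehydrated arrays (log2 -0.13 ± 0.16). Of the oxidase subunits, Cyba differed by 0.09 ± 0.11, and Cybb was under the filter with medians of 15.0 and 14.5.

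The inflammatory cytokines had some of the lowest signals of the 39 genes. Il1b had 9, 3.60, 16.1, 6.90 and 0.70 in control and 3.00, 1.40, 7.10, 10.7 and 8.90 in dehydrated arrays. Tnf had 7.10, 9.70, 1.10, 1.6 and 1.5 in control and 11.4, 6, 7.20, 11.1 and 2.10 in dehydrated arrays. Ccl2, which recruits monocytes, had 5.00, 1.5, 4.50, 1.00 and 4 in control and 2.40, 1.70, 1.80, 6.90 and 14.1 in dehydrated arrays. All 3 lay under the filter in both groups. Without the filter their unadjusted p were 0.858, 0.122 and 0.430, in the order given, and none passed.

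As a list, the 24 tested genes had a median log2 difference of -0.07 (14 negative, 10 positive), against -0.0048 over the 18629 probe sets tested, of which 51.2% were negative. No member was called in either direction (0 of 24, against 0.58% of all probe sets, 0.397% higher and 0.183% lower). The unadjusted p was under 0.05 in 4 of these genes (16.7%), 2 lower (Aif1 and Laptm5) and 2 higher (Ctsz and Ctss). The same threshold took in 12.7% of all probe sets, 6.01% lower and 6.7% higher. Over all 39 matched genes without a filter the median was also -0.07, with 22 negative and 17 positive. The members' share at each of these thresholds was thus close to that of all probe sets. These are bulk samples, in which fewer cells of a type and less RNA per cell cannot be told apart.

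Further genes of the same cells were read from the same fit. Of 45 related microglia and macrophage genes, 38 were matched and 21 tested, of which 1 fell, 0 rose and 20 did not pass, with a median log2 difference of -0.04. Over all probe sets 0.183% were called lower. The unadjusted p in limma was under 0.05 in 5 of the 21 (23.8%), 2 higher and 3 lower, against 12.7% of all probe sets. The 1 that fell was Evi2a, a small membrane protein gene nested in Nf1 that oligodendrocytes are also known to express. It had 296, 309, 279, 266 and 251 in control and 202, 245, 216, 209 and 213 in dehydrated arrays, with no overlap. Its log2 difference was -0.36 ± 0.08 (adjusted p = 0.0442), and the call was ended by the removal of any of 8 of the 10 arrays, all but dehydrated replicate 2 and control replicate 5 (up to 0.124 without control replicate 2), and by 4 other settings (median centring, quantile normalization, no filter and no variance trend, up to 0.116). The next in order of p were the galectin Lgals3 (0.35 ± 0.10, adjusted p = 0.156), the microglial transcription factor Sall1 (-0.28 ± 0.10) and the fructose transporter Slc2a5 (-0.40 ± 0.15). The groups of Evi2a, Sall1 and Slc2a5 did not overlap, with dehydrated lower in all 3 of the 21, where 1.42% of all probe sets were so. Of 21 phagocyte signalling genes 9 were tested and 0 passed, with Dock8 at -0.47 ± 0.15 (adjusted p = 0.182, dehydrated lower with no overlap) and Nckap1l at 0.38 ± 0.16. The average over all probe sets of Dock8 turned to 0.09. For Nckap1l the adjusted p was 0.356 on the brightest probe set and 0.625 with its probe sets averaged. Of 30 ligands and cytokines that act on these cells 16 were tested and 0 passed, with Nfkbia, an inhibitor of NF-kappa-B, at 0.37 ± 0.17 (adjusted p = 0.371) and the signal Cd47 at 0.11 ± 0.06.

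Genes of other cell types were read in the same pools, and 2 of those named here passed. Lists of vessel wall and meningeal, neuronal, magnocellular, granulocyte and mast cell genes were also read and are not reported here. All 10 tested oligodendrocyte genes were negative, with a median log2 difference of -0.29, and summed signals of 7848 to 9506 in control and 7273 to 7595 in dehydrated pools. In limma the unadjusted p was under 0.05 in 8 of the 10, all lower, against 6.01% of all probe sets. The groups of 3 did not overlap, all with dehydrated lower, against 1.42% of all probe sets. Of the 10, Ermn fell (-0.63 ± 0.12, adjusted p = 0.0255), while 9 did not pass, where 0.183% of all probe sets were called lower. Its call ended without dehydrated replicates 3 or 4 or control replicate 2 (up to 0.0792) and with the mean over its probe sets (log2 -0.39, adjusted p = 0.417), with no filter (0.0640) and with no variance trend (0.0942). Of 9 astrocyte genes 7 were negative (median -0.10, sums 13541 to 15591 and 13118 to 15124), and of 10 endothelial genes 9 were positive (median 0.15, sums 1286 to 1703 and 1532 to 1719), with 0 called in either list. The red cell gene Hbb fell (-0.67 ± 0.13, adjusted p = 0.0305), a call that ended without dehydrated replicates 1, 3 or 4 or control replicates 1, 2 or 4 (up to 0.0842), with no filter (0.0849) and with no variance trend (0.126). Genes of T and NK cells summed to 133 to 161 in control and 161 to 175 in dehydrated pools. Only Lck among them passed the filter, and with a mean of 94.9 it made up most of these sums. Its log2 difference was 0.15 ± 0.09 (adjusted p = 0.483). The part of other cell types in the differences of the microglial genes was not tested. Ratios of 3 prime to 5 prime control signals were 2.07 to 2.91 in control and 2.54 to 3.58 in dehydrated arrays for Gapdh, and 4.48 to 7.99 and 6.05 to 8.38 for beta-actin, with control replicate 5 lowest for both.

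Control replicate 5 bore on several of these genes. Without it, Aif1, Cd53, Ctsz, Fcer1g and Laptm5 had groups that did not overlap, 5 of the 24. Over all probe sets that share rose from 3.36% to 5.9%. The count of 5 was the largest among the 10 removals of 1 array, and every other removal gave 1 or 2. That count was picked out from the same values, so it does not test a difference in these genes. Other genes went the other way without control replicate 5, among them Irf8 (adjusted p from 0.787 to 0.954) and RT1-DMa (from 0.787 to 0.994). Tyrobp had its highest value of the 10 arrays, 91.6, in control replicate 5. Without that array Aif1 was called (log2 -0.49, adjusted p = 0.0250), and no other tested member was. Laptm5 was not called with any array left out, and its adjusted p ran from 0.0890 to 0.281. Its log2 difference ran from -0.58 to -0.35, the smallest without dehydrated replicate 1.

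**Figure D4:**
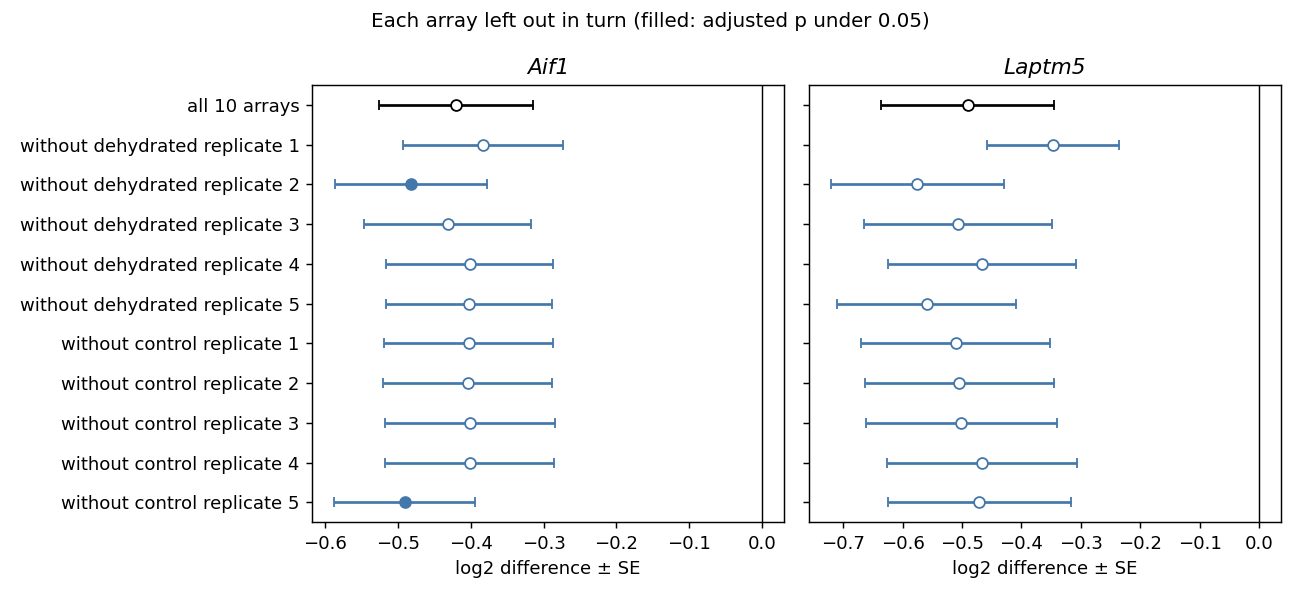
Log2 difference (dehydrated minus control, bars are SE) of Aif1 and Laptm5 with all 10 arrays and with each array left out in turn, filled where the adjusted p is under 0.05. Aif1 stays between -0.49 and -0.38 and is filled without dehydrated replicate 2 and without control replicate 5, and Laptm5 is open throughout.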

How the data were processed

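Deposited values were linear probe set signals (intensity), which the authors made with GCOS 1.2, per the submitters' processing notes. Its background settings are not stated in those notes. With 2% trimmed at each end, every array had a mean of 100.03, so the deposited intensities share 1 scale. Of 31099 probe sets, 57 controls were dropped. Of the remaining 31042, 20826 carry 1 symbol, 436 several (not named) and 9780 none listed.

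Groups came from the source names. Replicate numbers follow accession order. The design text describes separately prepared RNA from separate animals. Values were taken as log2(signal + 3.72), 0.1 of the median of array medians, which understates differences of dim genes. The 18629 probe sets with a mean at or above the 40th percentile (24.1) were tested with limma 3.58.1 (lmFit, eBayes with trend, R 4.3.3) as a two-sided test, adjusted after Benjamini and Hochberg, at a threshold of 0.05. All adjusted p are from such fits. Errors are SE for log2 differences and SD for signals. The number of arrays limits precision. The fit was tested on simulated data of independent normal values. Recovery was required there only for an effect larger than that of any member. An effect near the size of the largest member differences was also simulated, with no recovery required of it. The share recovered at that size is not reported here. Promoters are from RefSeq.

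Members and lists were chosen with earlier results of these data known. By rule, array values are given for the 8 members of smallest p and 17 fixed members where measured, and up to 4 genes of each further list are named. RT1-Bb and RT1-Db1 were named outside it, after their values were seen. The closing section gives the effect of scaling, pseudocount, filter, variance model, array weights, single arrays, probe set choice and symbols.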

Additional observations from a re-analysis of the deposited data

Results flagged for a closer look

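In 6 of the 78 groups of 5 arrays (39 genes in 2 groups, 7.69%), 1 array lay apart from the other 4 by more than 0.71 of the group's range. For independent normal values such a gap is expected in about 1 of 20 groups. Whether these linear signals meet that condition was not tested, and no rate over all probe sets was computed. Cd74 and RT1-Da did so in the same pool, dehydrated replicate 4, at 88.3 against 32.7 to 36.9 and at 73.8 against 25.8 to 37.5. Aif1 was low in control replicate 5, at 87.6 against 112 to 114 in the other controls. Dehydrated replicate 1 was high for Fcgr3a, at 65.6 against 35.1 to 39.6, and for Itgb2, at 61.5 against 46.4 to 50.3. Ptprc, which lay under the filter on low signals, was high in control replicate 3, at 24.4 against 18.8 to 20.2. For 15 of the further genes named, 2 of 30 groups (6.67%) had such a gap. RT1-DMa was at 87.4 in dehydrated replicate 4 against 74.2 to 76.1, and Ciita at 19.7 in control replicate 4 against 27.9 to 29.8.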

How the results depend on the processing

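No paired analysis was possible because replicate numbers follow accession order and the labels pair no pools. Of the values of the 24 tested genes under alternatives, 499 kept their direction and their side of the threshold, 3 (all Aif1) newly passed and 18 changed sign, none of them called. The count of genes called lower was 0, and 0 to 1 with each array left out. It was 1 with array weights (Aif1, adjusted p = 0.0224), and none was called higher in any setting. Control replicate 5 had the lowest weight, 0.385, and dehydrated replicate 1 the next lowest, 0.745. Array weights were thus not a setting apart from leaving out control replicate 5. Aif1's adjusted p ran from 0.0224 to 0.466 over the other settings. The genes' median log2 difference ran from -0.08 to -0.04 with each array left out and from -0.09 to -0.02 otherwise. Groups that did not overlap were found for 1 gene, for 1 to 5 with an array left out (4.18% to 5.92% of all probe sets) and for 0 with probe sets of a gene averaged (3.34%). Over all probe sets 74 were higher and 34 lower. With each array left out these were 38 to 92 and 8 to 56, without the variance trend 38 and 7, with array weights 127 and 74, with no filter 14 were lower and with median centring 46 were higher. Cd74 changed sign, and was at -0.0157 with median centring, -0.0117 with quantile normalization and -0.0019 with no pseudocount, and Cd37 at -0.0063 with array weights. With probe sets averaged P2ry12 was at 0.0142, Trem2 at 0.0945 and Dock8 at 0.0873. With an array left out, Cd74 ran from -0.25 to 0.0945, Cd37 from -0.0496 to 0.13, Itgb2 from -0.0155 to 0.0888, Cd48 from -0.011 to 0.19, RT1-Da from -0.0847 to 0.26, Cd14 from -0.29 to 0.0233, Lcp1 from -0.10 to 0.0262, Ciita from -0.087 to 0.26 and RT1-DMb from -0.14 to 0.0197. The causes were not tested. Updating symbols changed none of them. With the stricter filter 16 of the 24 genes were tested.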
